A study of Astatotilapia calliptera with 66 samples.

Results

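Benthic-private sites are cytosines of CG dinucleotides where methylation in livers of benthic Astatotilapia fish of Lake Masoko was unlike that in both other populations. The 2 cytosines of a CG pair, on opposite strands, count as separate sites where both were measured. Of 135040 CG sites on the linkage groups of the Maylandia zebra UMD2a genome, 2704 sites, or 2.00%, met the rule. The members were chosen by measured values: at each of them the mean of the 12 benthic fish differed from the littoral mean and from the riverine mean by at least 25 percentage points, in the same direction. The differences of the benthic fish from the other 2 populations are therefore given below as a description, and the number of sites at which a test called them is printed once, with nothing read from it. At 2361 of the 2704 sites (87.3%) the benthic mean was the higher one, and at 343 sites (12.7%) it was the lower one.

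Methylation of the cytosine in a CG pair is copied to the daughter strand at cell division and is the main form of DNA methylation in vertebrates. Most CG sites of a vertebrate genome are methylated, whereas CG-rich promoters and many active enhancers are free of it, and sites of intermediate level are often those where cells of 1 tissue differ from each other. The liver handles nutrients, bile, plasma proteins and hormones, and its hepatocytes lie beside blood cells, which in fish include nucleated red cells that carry DNA of their own.

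The fish were wild-caught adult males of Astatotilapia calliptera, a haplochromine cichlid. The 12 benthic fish came from the deep zone of the crater lake, the 12 littoral fish from its shallow shore, and the 11 riverine fish from the neighbouring river system, with no treatment in any population. Liver DNA of each fish was cut with MspI, an enzyme that cleaves at CCGG, bisulfite-converted and sequenced (reduced representation bisulfite sequencing, RRBS), so the sites lie in or next to CG-rich fragments and not across the whole genome. Water depth, diet, catch and descent differ together between these populations and cannot be told apart here. Methylation is given as the percentage of a fish's reads that were methylated at a site, and the number of reads behind each percentage is unknown, so the precision of single values is unknown too. Fish are numbered within their population.

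The same rule applied to the other populations gave fewer sites. The littoral mean stood apart from both other means at 149 sites (37 higher, 112 lower), and the riverine mean stood apart at 1471 sites (650 higher, 821 lower). Over all 87462 sites where the benthic mean lay outside the other 2 means by any amount, it was the higher one at 64.3%, against 87.3% of the benthic-private sites. On unplaced scaffolds 276 of 16737 sites (1.65%) met the rule, with the higher level in benthic fish at 223, and 0 of 123 mitochondrial sites did. The unplaced and mitochondrial sites are not counted among the 2704.

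The benthic-private sites were sites of intermediate methylation. The mean over all 35 fish lay between 20% and 80% at 97.1% of them, against 12.4% of all sites. Population means that differ by 25 points keep the mean over all fish off both ends of the scale. The intermediate level therefore follows in part from the rule. Of the 16687 intermediate sites, 2625 (15.7%) were benthic-private. At the sites higher in benthic fish the median of the site means was 61.5% in benthic fish, 26.7% in littoral fish and 24.6% in riverine fish. At the sites lower in benthic fish these medians were 32.2% in benthic fish, 65.7% in littoral fish and 68.1% in riverine fish. The smaller of a site's 2 differences had a median of 30.9 points at the higher sites and -28.9 points at the lower sites. It was under 30 points at 1244 sites, reached 40 points at 225 and reached 50 points at 14.

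The populations overlapped at nearly every site. Only at 2 of the 2704 sites did all 12 benthic fish lie beyond all 23 other fish, and these were also the only such sites among all 135040 (0.00148%). At the median site 9 of the 12 benthic fish and 3 of the 23 other fish lay on the benthic side of the point midway between the benthic mean and the nearer of the other means. All 12 benthic fish lay on that side at 25 sites, and at least 10 of them did at 1090 sites. The standard deviation among fish of a population had a median over the benthic-private sites of 21.9 points in benthic, 18.8 points in littoral and 15.1 points in riverine fish, against 6.5 points in benthic, 6.5 points in littoral and 6.4 points in riverine fish over all sites. Few of all sites are intermediate, and values near an end of the scale have little room to vary, so these 2 sets are not matched for level.

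At the first of the sites without overlap, NC_036785.1:5549219, the lowest, median and highest values were 37.8%, 56.3% and 88.9% in benthic fish, 0%, 18.3% and 34.2% in littoral fish, and 0%, 11.1% and 29.0% in riverine fish. At the other, NC_036793.1:6481373, they were 56.2%, 75.6% and 91.2% in benthic fish, 28.2%, 49.8% and 53.9% in littoral fish, and 19.2%, 30.6% and 48.8% in riverine fish. At both, the lowest benthic fish was only a few points above the highest littoral fish. Both sites had a neighbouring benthic-private site, 6 bp away for the first and 1 bp away for the second.

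Averaged over the 2361 sites higher in benthic fish, methylation in a single liver had a lowest, median and highest value of 38.1%, 64.4% and 79.3% among benthic fish, 18.5%, 26.9% and 45.8% among littoral fish, and 19.6%, 25.3% and 35.5% among riverine fish. Benthic fish 9 gave the lowest benthic mean, below that of littoral fish 1, which gave the highest littoral mean, and no other fish crossed between the lake populations. The next lowest benthic fish stood at 51.3% and the next highest littoral fish at 32.7%. Over the 343 sites lower in benthic fish, the lowest, median and highest means were 21.4%, 29.2% and 49.9% in benthic fish, 48.3%, 65.7% and 73.5% in littoral fish, and 60.5%, 68.9% and 73.9% in riverine fish. Benthic fish 9 and littoral fish 1 again crossed. Counting sites, benthic fish 9 was on the benthic side at 32.8% of the 2704 sites and littoral fish 1 at 50.4%, while riverine fish 1 had the highest share among riverine fish, 28.9%. The medians of this share were 81.9% in benthic fish, 14.8% in littoral fish and 9.6% in riverine fish.

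**Figure D1:**
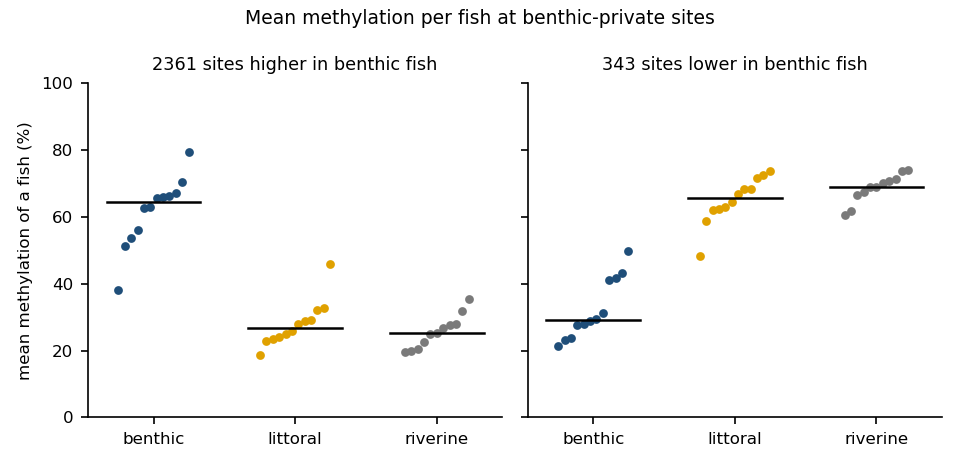
Each point is the mean methylation (%) of 1 fish over the 2361 sites higher in benthic fish (left) or the 343 sites lower in benthic fish (right), by population, and bars are population medians. Benthic fish lie at 38.1% to 79.3% on the left, with 1 benthic fish below the highest littoral fish at 45.8%, and at 21.4% to 49.9% on the right.

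These 3 fish, benthic 9, littoral 1 and riverine 1, stood furthest from the rest of their populations. Without them the rule chose 3583 sites, of which 2655 were among the 2704, and 49 of the 2704 were lost. The fish means over the original higher sites then ran from 51.3% to 79.3% in benthic fish, from 18.5% to 32.7% in littoral fish and from 19.6% to 31.8% in riverine fish, with no overlap. The gap between benthic and other fish in these means follows from how the sites were chosen.

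Within each population, fish with high levels at the higher sites had low levels at the lower sites. Across fish the correlation of the 2 means was r = -0.94 among 12 benthic fish (Spearman rho = -0.90), r = -0.81 among 12 littoral fish (rho = -0.61) and r = -0.89 among 11 riverine fish (rho = -0.82). Without the 2 fish furthest from the median of the lower sites it was -0.88 in benthic, -0.32 in littoral and -0.69 in riverine fish, so that the littoral value rested on those fish. Each fish's values at the 2 kinds of site come from the same library. Benthic fish 5 gave the highest mean at the higher sites (79.3%) and the lowest at the lower sites (21.4%), and exceeded the benthic mean at 84.2% of the higher sites. Benthic fish 9 exceeded it at 11.1% of them. A single axis carried 17.5% of the variance of the fish around their population means at the benthic-private sites, against 6.89% at the 14062 other intermediate sites and 4.99% at all other sites. The rule used the means of these same fish, so fish that pull a population mean weigh on which sites were chosen, and neighbouring members share reads, so these shares are a description and part of the contrast follows from the choice. Without the 3 fish named above it carried 11.7% at the benthic-private sites and 5.87% at the other intermediate sites.

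The level of a fish at the higher sites went with its level at other intermediate sites, and less with its level over all other sites. The mean of a fish over those 14062 sites went with its mean over the higher sites at r = 0.95 in benthic fish, 0.92 in littoral fish and 0.80 in riverine fish, and at 0.82 in benthic, 0.82 in littoral and 0.69 in riverine fish without the 2 furthest. With the mean over all other sites the values were r = 0.79 in benthic (rho = 0.57), 0.56 in littoral (rho = 0.13) and 0.60 in riverine fish (rho = 0.51), and 0.09 in benthic, -0.09 in littoral and 0.15 in riverine fish without the 2 furthest, so that these rested on those fish. Means over these other intermediate sites were 58.1%, 63.8% and 69.0% in benthic fish (lowest, median, highest), 55.1%, 57.9% and 62.1% in littoral fish and 51.9%, 56.7% and 59.4% in riverine fish. With the log10 of a library's mapped reads, the mean at the higher sites correlated at r = -0.33 in benthic, 0.59 in littoral and 0.23 in riverine fish. Without the 2 furthest it was -0.23 in benthic, 0.57 in littoral and -0.06 in riverine fish. Depth was not balanced between populations: 4 littoral, 1 benthic and 0 riverine libraries had under 6 Mio mapped reads. The part of cell composition in these fish-to-fish differences was not tested, nor that of depth beyond a fit in littoral fish given below.

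**Figure D2:**
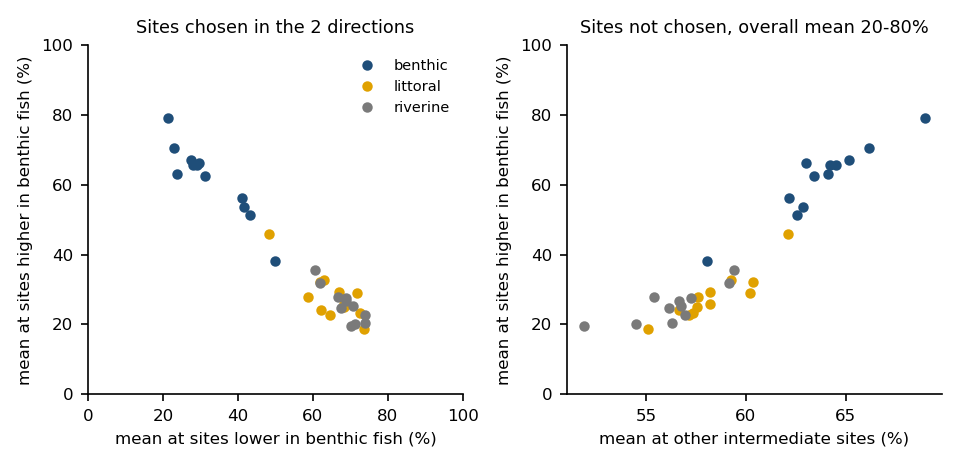
Each point is 1 fish, coloured by population, with its mean methylation (%) over sites higher in benthic fish on the y axis against its mean over sites lower in benthic fish (left) or over 14062 intermediate sites that were not chosen (right). Within each population the points descend on the left (r = -0.94, -0.81 and -0.89 in benthic, littoral and riverine fish) and ascend on the right (r = 0.95, 0.92 and 0.80).

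Benthic-private sites lay together in short stretches. Joined where 200 bp or less apart, the 2704 sites formed 1237 regions, of which 655 were single sites, 270 were pairs and 312 held at least 3 sites. These 312 regions held 1509 sites, 55.8% of the total, over a median length of 47 bp, and the longest spanned 650 bp. In 283 of them all members were higher in benthic fish, in 29 all were lower, and 0 regions of any size held members of both directions. The 312 regions contained 1745 sites of the table, 86.5% of them members, and of the remainder 226 moved in the direction of their region without reaching 25 points while 0 lay beyond both other means on the opposite side. Single sites made up 38.8% of the lower sites and 22.1% of the higher sites. A single RRBS read covers several neighbouring CG positions, so sites of 1 region share reads and are not independent measurements.

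The 6 regions with most members were all higher in benthic fish. Region A (NC_036780.1:4023584-4024233) held 22 members among 39 sites of the table, all 39 of which moved in the same direction. Averaged over its members, the lowest, median and highest fish had 28.7%, 59.0% and 77.7% in benthic fish, 7.56%, 22.7% and 37.0% in littoral fish, and 7.79%, 18.4% and 42.4% in riverine fish. Of the 12 benthic fish 9 lay above all others, and riverine fish 1 was the highest riverine fish.

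Region B (NC_036800.1:20617185-20617408) held 17 members and no other site of the table. Its values were 34.2%, 67.3% and 90.6% in benthic fish, 2.35%, 23.8% and 54.3% in littoral fish, and 0.471%, 21.4% and 39.3% in riverine fish. Region C (NC_036795.1:24186572-24186970), with 17 members, had 27.0%, 58.5% and 93.2% in benthic fish, 14.1%, 21.7% and 40.04% in littoral fish, and 13.1%, 21.8% and 31.5% in riverine fish. In each of them 11 of 12 benthic fish exceeded all other fish, the exception being benthic fish 9, and littoral fish 1 was the highest of the littoral fish.

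Region D (NC_036795.1:14796797-14796930), again with 17 members, differed in form from the other 5 regions. It was nearly free of methylation outside the benthic fish, at 0%, 0.153% and 2.84% in riverine fish and 0%, 1.25% and 33.5% in littoral fish. Among benthic fish the values ran from 0% over a median of 41.2% to 79.2%, with the lowest 3 fish near 0% and 8 of 12 above all other fish. Here the lowest benthic fish was fish 7, not fish 9.

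Region E (NC_036785.1:186687-186999), with 16 members and no other site, had 13.4%, 59.1% and 91.4% in benthic fish, 9.93%, 21.0% and 38.1% in littoral fish, and 8.90%, 20.9% and 26.5% in riverine fish. Region F (NC_036800.1:24068003-24068052), with 14 members within 50 bp, had 22.4%, 49.8% and 90.2% in benthic fish, 6.39%, 21.8% and 54.2% in littoral fish, and 2.80%, 10.4% and 24.2% in riverine fish. In both, benthic fish 9 was the lowest and benthic fish 5 the highest benthic fish, and littoral fish 1 was the highest littoral fish. In region F littoral fish 1 exceeded all but 5 of the benthic fish.

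**Figure D3:**
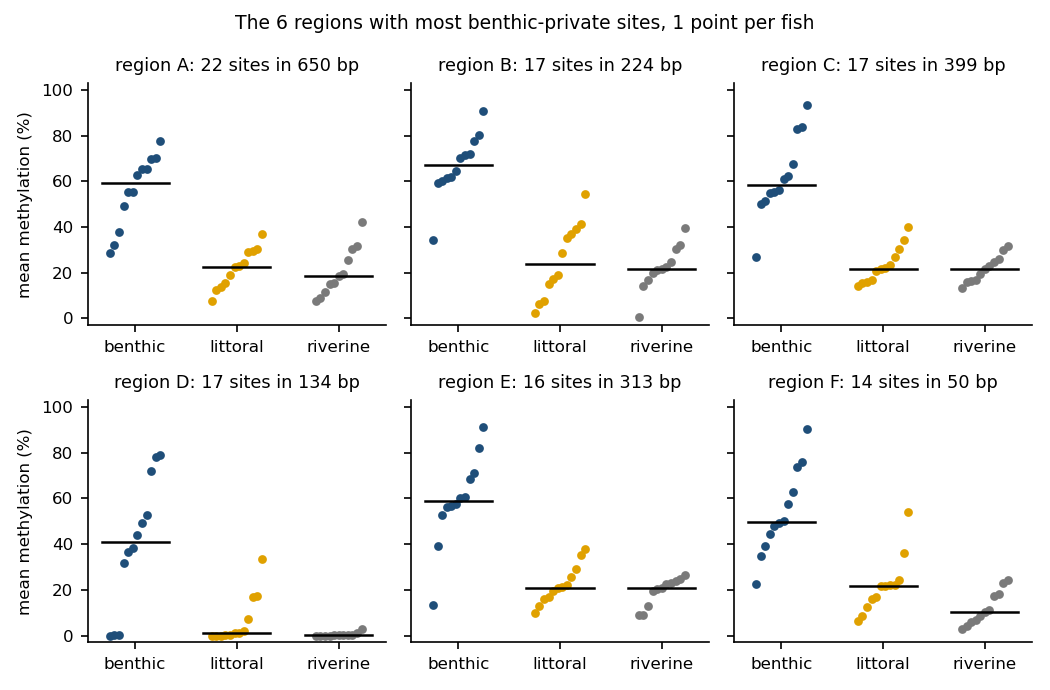
Each point is the mean methylation (%) of 1 fish over the benthic-private sites of a region, for the 6 regions with most such sites, and bars are population medians. In regions A, B, C, E and F the littoral and riverine fish spread around medians of 10.4% to 23.8%, while in region D the riverine fish lie at or under 2.84% and the benthic fish run from 0% to 79.2%.

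The single sites with the largest differences are given in each direction. The largest gain was at NC_036785.1:34538961, where the lowest, median and highest values were 2.94%, 84.5% and 100% in benthic fish, 0%, 4.76% and 53.6% in littoral fish, and 0%, 13.1% and 47.9% in riverine fish. The means were 73.1% ± 30.8 in benthic fish (SD, n = 12), 14.4% ± 18.2 in littoral fish (SD, n = 12) and 16.7% ± 16.3 in riverine fish (SD, n = 11), and 9 benthic fish exceeded all others. The next 4, each from a region of its own, were NC_036795.1:24186646 (in region C), NC_036793.1:32863449, NC_036800.1:20617185 (in region B) and NC_036795.1:17365858, with smaller differences of 53.3, 53.3, 53.1 and 51.9 points. Benthic fish 9 was the lowest benthic fish at 4 of these 5 sites. The nearest table site within 50 bp was also benthic-private at all 5.

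The largest loss was at NC_036782.1:34479536, with 0%, 12.5% and 82.9% in benthic fish, 14.3%, 100% and 100% in littoral fish, and 68.0%, 100% and 100% in riverine fish. Of the benthic fish 6 were at 10% or less, while 7 littoral and 8 riverine fish were at 90% or more. No other site of the table lay within 50 bp of it. At NC_036782.1:29418214 the values were 0%, 22.6% and 100% in benthic fish, 0%, 97.3% and 100% in littoral fish, and 43.7%, 87.9% and 100% in riverine fish. Its neighbour 8 bp away was not changed alike, with means of 81.7% in benthic, 83.8% in littoral and 84.5% in riverine fish.

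The site NC_036781.1:2039078 was of the same form, with 7 benthic fish at 10% or less, 3 at 90% or more, and a neighbour 9 bp away at 95.9% in benthic, 89.8% in littoral and 98.7% in riverine fish. At NC_036798.1:7818415 the values spanned the whole scale inside populations. Of the benthic fish 4 were at 10% or less and 2 at 90% or more, of the littoral fish 1 was at 10% or less and 9 at 90% or more, and of the riverine fish likewise 1 and 9. There the site 7 bp away moved with it (38.1% in benthic, 85.9% in littoral and 84.7% in riverine fish). At the remaining one of the 5, NC_036785.1:14422370, the values were 0%, 33.2% and 72.1% in benthic fish, 61.6%, 79.2% and 100% in littoral fish, and 63.9%, 92.7% and 100% in riverine fish. There 2 benthic fish were at 10% or less, and 5 littoral and 6 riverine fish were at 90% or more. A cytosine lost to a DNA variant also reads as unmethylated in bisulfite data, and genotypes were not used here, so its part at these sites was not tested.

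**Figure D4:**
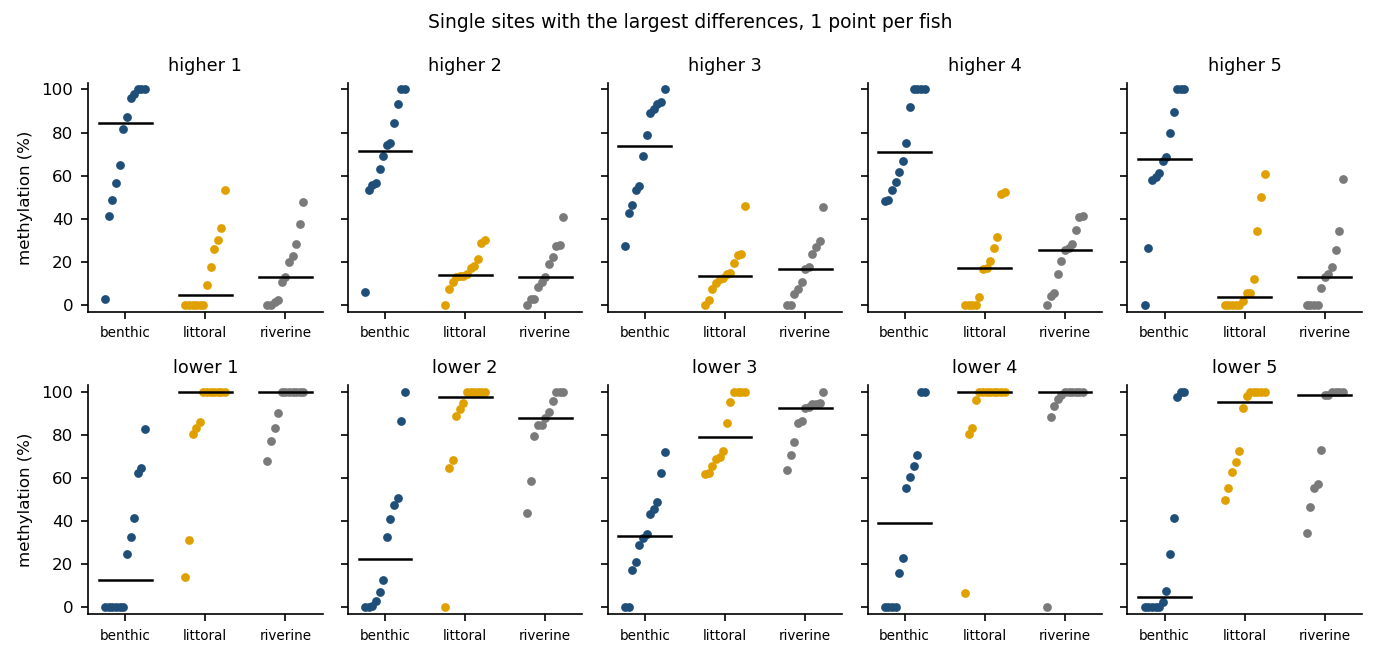
Each point is the methylation (%) of 1 fish at a single site, for the 5 sites with the largest gain (upper row, in the order given in the text) and the 5 with the largest loss (lower row: NC_036782.1:34479536, NC_036782.1:29418214, NC_036785.1:14422370, NC_036798.1:7818415 and NC_036781.1:2039078) in benthic fish, and bars are population medians. Benthic fish fall at both ends of the scale at the last 2 sites of the lower row, with 4 and 7 fish at 10% or less and 2 and 3 fish at 90% or more.

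Near the threshold, the members just inside it were NC_036781.1:28290382, with means of 36.8% in benthic, 11.8% in littoral and 4.41% in riverine fish, and NC_036795.1:469493, with 11.2% in benthic, 36.2% in littoral and 45.9% in riverine fish. Just outside it lay NC_036790.1:23818076, with 67.6% in benthic, 42.6% in littoral and 37.2% in riverine fish, and NC_036789.1:24516885, with 49.2% in benthic, 76.3% in littoral and 74.2% in riverine fish. Within 1 point of the threshold there were 271 sites inside and 298 outside, so the number of sites did not step at the threshold.

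Sites near a benthic-private site moved with it over short distances. Taken in the direction of the member, the benthic fish differed from the mean of the other 2 populations by a median of 31.0 points at table sites 2 to 50 bp away, 27.6 points at up to 100 bp, 24.2 points at up to 200 bp, 17.9 points at up to 500 bp and 3.51 points at up to 1000 bp, and by 1.28 points at the greatest distances, up to 50000 bp. Beside lower sites the neighbours differed less: 27.0 points at 2 to 50 bp and 8.33 points between 200 and 500 bp, against 31.5 and 18.4 points beside higher sites. Beyond 500 bp the medians beside lower sites were slightly opposite in direction, from -0.987 to -1.57 points. Beside higher sites they were 1.62 to 3.60 points there, so benthic fish were slightly higher beside sites of both directions. Over all sites benthic fish were also higher, by a median of 0.417 points. Of the neighbours, 67.4% were themselves members at 2 to 50 bp, 51.7% at up to 100 bp, 39.4% at up to 200 bp and 25.9% at up to 500 bp. Members differ by at least 25 points by the rule, so part of these medians follows from the choice of sites. Medians of the other neighbours alone were not taken. The nearest site within 50 bp, leaving out the partner cytosine 1 bp away, was a member for 69.8% of 2092 higher sites and 49.8% of 285 lower sites. It differed by under 5 points beside 2.68% of the higher sites and 11.6% of the lower sites. Where both cytosines of a CG pair, which lie on opposite strands, were in the table and at least 1 was a member (380 pairs), both were members in 168. In the other 212 pairs the partner moved in the same direction in 210, by a median of 22.6 points.

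**Figure D5:**
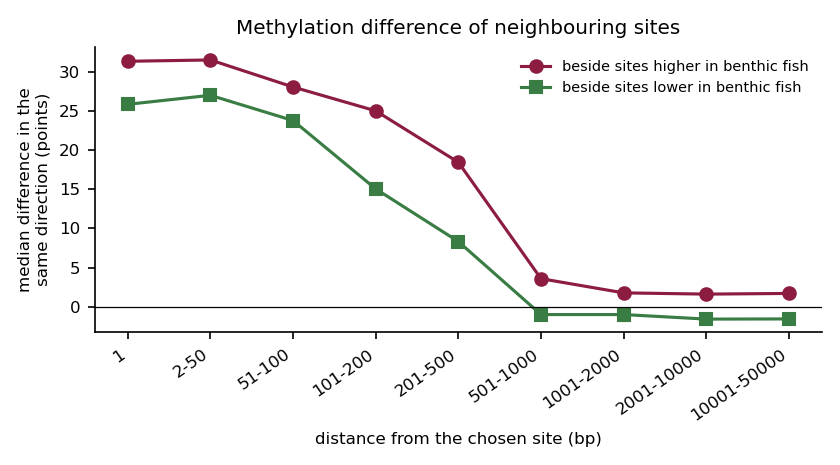
The y axis gives the median difference (percentage points) between benthic fish and the mean of the other 2 populations at table sites around a benthic-private site, signed so that positive values share the direction of that site, and the x axis gives the distance (bp) in classes of unequal width. At 1 bp the lines stand at 31.3 points beside higher sites and 25.8 points beside lower sites. Both fall from 31.5 and 27.0 points at 2 to 50 bp to within 2 points of 0 beyond 1000 bp. Beside lower sites the line lies under 0 beyond 500 bp. The sites around include other benthic-private sites (67.4% at 2 to 50 bp), so part of the fall follows from the rule.

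All 22 linkage groups held benthic-private sites. Their share was highest on NC_036783.1, where 198 of 6454 sites (3.07%) were members, and lowest on NC_036781.1, where 47 of 6035 (0.779%) were, with a median of 1.96% over linkage groups. Between 76.2% and 93.9% of a linkage group's members were higher in benthic fish. Of 767 windows of 1 Mb with any table site, 562 held a member. The fullest window, singled out after its values were seen, was NC_036800.1:20000001-21000000, with 63 members among 389 sites in 12 regions, region B among them. The share of members moved with the density of the table in opposite ways over all sites and over intermediate sites. Of all sites, 2.47% of those with at most 2 other table sites within 100 bp were members, 1.80% of those with 3 to 5, 1.839% of those with 6 to 10 and 1.57% of those with 11 to 20. Of the intermediate sites, 12.4% of those with at most 2 other table sites within 100 bp were members, 16.3% of those with 3 to 5, 24.7% of those with 6 to 10 and 25.3% of those with 11 to 20. Dense clusters of sites share fragments and reads, as above. Which genes the sites lie in or near was not analysed here, because the positions are on a genome build for which no annotation was used.

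Littoral and riverine fish were compared at the benthic-private sites as a description. The rule was not written on that contrast, but it used both means and placed both populations on the same side of the benthic mean. The littoral mean lay between the riverine and the benthic mean at 1721 sites (63.6%). The 2 means were within 10 points of each other at 82.5% of the benthic-private sites, against 90.9% of all sites, few of which are intermediate. In limma's moderated test over the 3 populations, with p-values adjusted by Benjamini-Hochberg over all 147188 sites that varied, 7 of 2704 benthic-private sites (0.259%) differed between littoral and riverine fish at an adjusted p under 0.05 and at least 25 points, against 0.692% of all sites tested. At a member called here, 1 of the 2 means must lie at least 25 points beyond the other, seen from the benthic mean. The rule therefore bears on the 0.259%, and nothing is read from it. The sites tested, here and for the slopes below, were drawn from unplaced scaffolds and the mitochondrion as well as from linkage groups. For the contrasts that the rule used, the same test called 2215 benthic-private sites between benthic and riverine fish, where 3.36% of all sites were called, and 1815 between benthic and littoral fish, where 1.61% were called. No support is read from these last counts.

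At all 7 called sites littoral fish, and not riverine fish, held the intermediate mean. The rule makes 1 of these 2 populations intermediate at any such site. On NC_036789.1, 3 of them lay within a stretch of under 24 kb, positions 30793571, 30817230 and 30817231, the last 2 being 1 bp apart. At 30793571 the lowest, median and highest values were 0%, 0% and 52.5% in benthic fish, 0%, 38.5% and 56.9% in littoral fish, and 86.8%, 90.4% and 100% in riverine fish. Littoral fish were 59.3 points lower than riverine fish there (SE 6.41, limma adjusted p = 1.6e-07), and the 2 populations did not overlap. At 30817231 the values were 0%, 0% and 3.85% in benthic fish, 0%, 18.5% and 87.5% in littoral fish, and 55.9%, 96.3% and 100% in riverine fish (59.1 points lower in littoral than in riverine fish, SE 8.66, limma adjusted p = 5.3e-05). A further site on the same linkage group, 28536031, had means of 7.99% in benthic, 33.5% in littoral and 86.4% in riverine fish. The other 3 were higher in benthic fish, with littoral means of 45.6% to 66.6% and riverine means of 3.16% to 22.0%: NC_036782.1:21412255, NC_036786.1:9474269 and NC_036781.1:12355988. At these 3 sites benthic and littoral fish overlapped, with littoral fish running from 0% to 98.3% or more. Genotypes were not used at the 7 called sites either, so the part of a cytosine lost to a DNA variant was not tested there.

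The fish of 1 population differ in muscle carbon isotope ratio, a measure of whether the diet derives from offshore plankton or from the shore. Slopes of methylation on this ratio were fitted within populations, which the rule had not compared. Among 12 littoral fish limma called 0 of 2704 benthic-private sites, and 0% of 133003 sites in all, at an adjusted p under 0.05. At an unadjusted p under 0.05 there were 150 benthic-private sites, or 5.55%, against 4.63% of all sites tested. Among 12 benthic fish limma likewise called 0 of 2704, and 0% of 132846 sites in all, and 40 benthic-private sites, or 1.48%, had an unadjusted p under 0.05, against 5.00% of all. On the logit scale limma also called 0 benthic-private sites in both populations, and the count over all sites on that scale is not given. The smallest p of a benthic-private site was at NC_036789.1:445926 in littoral fish, with a slope of 14.4 points per ‰ of the ratio (SE 3.12, limma adjusted p = 0.91), and at NC_036782.1:28612947 in benthic fish, with -42.0 points per ‰ (SE 10.9, limma adjusted p = 0.82). A test of the difference between the benthic and littoral slopes called 0 of 2704 benthic-private sites and 0 of 142889 sites in all.

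The 9 riverine fish with an isotope value were fitted after the data had been seen. Again limma called 0 of 2694 benthic-private sites, and 0% of 133313 sites. There 322 benthic-private sites, or 12.0%, had an unadjusted p under 0.05, against 6.17% of all sites tested. The slope was negative at 73.5% of the higher sites and positive at 65.3% of the lower sites, and negative at 51.5% of all sites tested. In benthic fish it was negative at 45.5% of the higher sites and positive at 34.7% of the lower sites, in littoral fish negative at 37.7% and positive at 50.1%, and with all 3 populations negative at 52.2% and positive at 57.4%. Over all sites tested it was negative at 50.9% in benthic fish, 50.7% in littoral fish and 52.3% with all 3 populations. The sites share reads and the same few fish, so these shares are a description, and no difference in direction between populations is read from them. The mean of a riverine fish over the higher sites correlated with its ratio at r = -0.80 (rho = -0.72, n = 9), and at -0.59 without the 2 furthest fish. In benthic fish r was 0.03 (rho = -0.13, n = 12), and -0.21 without the 2 furthest. In littoral fish r was 0.27 (rho = 0.55, n = 12), and 0.08 without the 2 furthest. With all 3 populations in a fit that held population as a term, limma called 0 of 2704 benthic-private sites and 0% of all, with 56 (2.07%) at an unadjusted p under 0.05 against 5.37% of all sites. The smallest p was at NC_036786.1:2271596 in riverine fish (-7.76 points per ‰, SE 1.45, limma adjusted p = 0.81) and at NC_036798.1:8536381 over the 3 populations (-10.8 points per ‰, SE 3.23, limma adjusted p = 0.83). Differences in slope between riverine and benthic fish were called at 0 benthic-private sites and at 0 of 143013 sites in all. Those between riverine and littoral fish were called at 0 benthic-private sites and at 1 of 143165 sites in all. Against the log10 of mapped reads in the 12 littoral fish, limma called 0 benthic-private sites and 0% of all, and 352 (13.02%) had an unadjusted p under 0.05, against 5.91% of all sites. That slope on mapped reads was negative at 21.0% of the higher sites and positive at 28.9% of the lower sites. Over all sites tested it was negative at 53.2%. These shares too are a description.

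RNA was sequenced from the livers of 13 of these fish, and was used here to look at which cells the livers held. Few of the marker genes listed were found under those symbols. The 3 of 15 hepatocyte genes found included the fibrinogen chains fgb and fgg, which hepatocytes secrete into plasma, at 7242 to 13691 TPM for fgb in benthic livers, 5683 to 14471 TPM in littoral livers and 6562 to 11108 TPM in riverine livers. The third, cps1, was under 1 TPM in every liver. All 5 benthic libraries came from 1 sequencing run, with longer reads that were shortened by the authors, and all 4 riverine libraries from another, with 3 littoral libraries in the run of the benthic ones and 1 in that of the riverine ones, so run and population cannot be told apart between benthic and riverine livers. Of 7 red cell genes only gata1 was found, at 0.0819 to 0.5 TPM in benthic, 0.074 to 2.18 TPM in littoral and 0.917 to 12.4 TPM in riverine livers. The study reported other red cell genes (Eklf, EpoR, Scl/Tal1 and hemoglobin subunits) as higher in benthic than in littoral livers. The level of gata1 alone is therefore not a measure of red cell content. Within the run that held both lake populations gata1 was at 0.0819 to 0.5 TPM in 5 benthic livers and 0.708 to 2.18 TPM in 3 littoral livers, and the leukocyte genes summed to 157 to 1761 TPM in the benthic and 126 to 503 TPM in the littoral livers. The 4 of 6 leukocyte genes found summed to 157 to 1761 TPM in 5 benthic livers, 126 to 503 TPM in 4 littoral livers and 104 to 222 TPM in 4 riverine livers, most of it cd74, a gene of antigen-presenting cells. Singly, lcp1 was at 4.15 to 86.6 TPM in benthic and 1.10 to 2.77 TPM in riverine livers, without overlap. For ptprc the ranges barely missed each other, at 1.56 to 46.9 TPM in benthic and 0.764 to 1.55 TPM in riverine livers. Those of mpeg1 (1.29 to 45.0 and 1.19 to 2.75 TPM) and cd74 (150 to 1582.5 and 100 to 215 TPM) overlapped. All 4 genes overlapped between benthic and littoral livers. The 2 of 6 muscle genes found stayed under 3 TPM in sum, and 0 of 7 exocrine pancreas genes were found. In order of their means at the higher sites (51.3%, 56.2%, 62.7%, 67.1% and 79.3%), the 5 benthic livers had leukocyte sums of 157, 419, 1761, 344 and 793 TPM. The part of cell composition in the methylation differences was not tested beyond these values, and a difference in the share of a cell type cannot be told apart from a difference within its cells in bulk liver.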

How the data were processed

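Liver RRBS of 35 wild males was analysed as a deposited table of percent methylation. The authors trimmed single-end reads with Trim Galore in RRBS mode, aligned them with Bismark to Maylandia zebra UMD2a, and kept CG sites found in every fish. The column names carry a mark for 4 reads of coverage, and read counts per site were not used here, so the precision of single values is unknown. Fragments cut by an enzyme share ends, so PCR copies cannot be recognised. RNA values were deposited as TPM, quantified by the authors with kallisto.

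The 2704 members and all lists were chosen with earlier results of these data known. Members were joined into regions at 200 bp or less. Tests used limma 3.58.1 in R 4.3.3 on percentages, with a mean-variance trend. P-values were adjusted by Benjamini-Hochberg over all varying sites, unplaced and mitochondrial ones included. The fits were also run on simulated sites that were independent of each other, unlike the sites here. A population contrast needed an adjusted p under 0.05 and 25 points, and a slope an adjusted p under 0.05. Isotope ratios and mapped reads per fish came from the study's supplement, as covariates only. Named sites were the 5 highest and 5 lowest by the smaller difference (1 per region), the 6 fullest regions, sites at the threshold, extreme linkage groups and the site with the smallest p in each slope fit. The sites without overlap and the 7 sites called between littoral and riverine fish were named after their values were seen. Marker TPM were summed over transcripts of a symbol. Replicate numbers follow accession order, and libraries were sequenced in pools whose assignment per fish is not given in the sources used here. Whole-genome bisulfite and tank-reared samples were not analysed here. Python 3.11.15 was used for descriptions.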

Additional observations from a re-analysis of the deposited data

How the results depend on the processing

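The number of benthic-private sites depends on the threshold: 4371 sites met 20 points and 643 met 35 points, with 83.7% and 90.8% of them higher in benthic fish. With the cytosines of a CG pair averaged into 1 site, 2436 sites met the rule, 87.2% of them higher in benthic fish. With population medians 3490 sites met the rule, 2388 of them among the 2704, and 83.6% were higher in benthic fish. With the 30 fish of at least 6 Mio mapped reads 2279 sites met it, only 1988 of them among the 2704, and 85.7% were higher. The share of higher sites was 85.7% without the 3 fish named in the report, a choice made after seeing the data. Leaving out 1 fish at a time gave 2329 to 3297 sites, the highest without benthic replicate 9, and a share higher in benthic fish of 86.3% to 88.0%. The number of regions of at least 3 sites was 302 to 313 at the other joining distances and 422 without the 3 fish. Between 6 and 8 benthic-private sites were called littoral against riverine under the alternatives. The shares of all sites called under these alternatives are not given, so nothing is read from these counts. Each isotope slope gave 0 called members in every alternative that was run. The leave-one-out range was 0 to 0 for the littoral, benthic and riverine slopes, and the fit of all 3 populations was not run with fish left out. Counts of 0 with 9 to 12 fish, or with the 33 fish of all 3 populations, do not show that no relation exists. Of 134 alternative values, 127 stayed within the spread or within 1.5 times. The spread, used for the share of higher sites, was a 95% binomial interval of 86.0% to 88.5%. It takes sites as independent, although they share reads and fish. Many of the values that stayed were slope counts of 0 beside a main count of 0, so the tally is not a measure of robustness. No paired analysis was possible between populations, because they consist of different fish and the RRBS fish carry no replicate numbers in their labels. RRBS and RNA libraries of the same fish share its ID, by which the 13 fish with RNA were matched. The comparison of expression for genes at these sites was not run, since no annotation of the files' build was used. Depth per site is unknown, so no interval is given for single percentages.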
